A study of Mus musculus with 4 samples.

Results

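Transcripts of 7 genes were examined: Bcl6, Bach2 and the corepressor genes Ncor1, Hdac3, Tbl1xr1, Bcor and Mta3. They were chosen by gene symbol, and each symbol named 1 of the 37646 genes listed. The cells were living splenic cells, sorted as positive for the B cell antigen B220 and for YFP, from C57BL/6 mice of the genotype YFPstopF/+Cg1Cre/+. In these mice a Cre recombinase at the Ighg1 (Cg1) locus switches on a YFP reporter, and the labels call the sorted cells normal germinal centre B cells. The design text states injections of sheep red blood cells, a first one 20 days before the second, and sampling 10 days after the second. All 4 libraries form 1 group. Lymphoma samples, which the design text also names, were not analysed here, and the comparisons are thus of genes within a library and of libraries with each other. Whether each library had its own animal is not stated in the labels, so p-values measure only the spread between these libraries, which may be technical in part. YFP stays on in descendants of cells that once expressed Cre, so memory and plasma cells can carry it too.

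BCL6 is a repressor with a BTB domain and zinc fingers that B cells need to enter and stay in the germinal centre. It acts through corepressors: its BTB domain recruits NCOR1 or BCOR, and a separate region of the protein has been linked to MTA3 and its deacetylase complex NuRD. NCOR1 carries the histone deacetylase HDAC3 and the exchange factor TBL1XR1, while BCOR brings a Polycomb complex. BACH2 is a BTB repressor of the basic leucine zipper class that pairs with small MAF proteins and, like BCL6, holds down Prdm1, the gene of the plasma cell regulator BLIMP1.

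BCL6 is also known to bind and repress its own gene, so the start regions of Bcl6 are shown. RefSeq (GRCm38.p6) lists 5 of the 7 genes in its promoter table as used here, with 2 starts each for Bcl6, Ncor1 and Bcor. Windows from 250 bases before to 50 bases after each start were searched on both strands for a BCL6 core, TTCCTNGAA. Bcl6 and Ncor1 each held 1 match, while the windows of Bach2, Bcor and Tbl1xr1 held none. The only Bach2 window lay at a start inside the gene, at 32417435 on chromosome 4. The region before the outer end of Bach2, which GENCODE M21 places at 32238804, was not searched for any motif. Of all 32851 windows of this length, 1.59% held a match, and of all 27025 genes, 1.86%. The 250 bases before the 2 starts of Bcl6 and a 29-base stretch of Ncor1 follow, 5′ to 3′ on the gene's strand, with the core in capitals.
Bcl6, outer start, chr16:23988853-23989102, minus strand: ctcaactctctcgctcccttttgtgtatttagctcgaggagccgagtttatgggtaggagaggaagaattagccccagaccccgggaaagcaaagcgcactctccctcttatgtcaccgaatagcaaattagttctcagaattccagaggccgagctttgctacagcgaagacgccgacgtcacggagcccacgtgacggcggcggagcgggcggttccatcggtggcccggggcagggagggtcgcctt
Bcl6, inner start, chr16:23981284-23981533, minus strand: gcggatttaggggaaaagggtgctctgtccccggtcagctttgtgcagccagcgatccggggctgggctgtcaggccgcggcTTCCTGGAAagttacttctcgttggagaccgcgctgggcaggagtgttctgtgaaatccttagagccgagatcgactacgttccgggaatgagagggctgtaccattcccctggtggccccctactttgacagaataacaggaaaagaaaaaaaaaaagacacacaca
Ncor1, inner start, chr11:62438492-62438520, minus strand: tgtaggttgcTTCCTAGAAacatggttgt

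The core of Bcl6 lay at position -168 from the inner start, in a stretch that GENCODE M21 places in no Bcl6 exon. In Ncor1 it began at position 5 after the start, and 24 of the 29 bases printed fall in annotated Ncor1 exons. Any match of the BCL6 core also fits the STAT motif TTCNNNGAA by its letters, so this holds for both cores by definition. The STAT motif was held by 8.3% of the windows. No window of the 5 genes held the heptamer TGAGTCA on either strand, the core bound by BACH and AP-1 proteins, which 5.2% of all windows held. Matches of letters describe these windows and are not binding sites.

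Library totals ran from 13777954 to 14629025 counts. Each of the 7 genes had between 1046 and 6255 counts in a library, so that counting error was at most 3.09% of a value, as given by the lowest count. Library 3 alone carried counts of the Y-linked gene Ddx3y above 3 (1307) and had 6 counts of Xist against at least 8689 in the others, so it differs from them in sex as well. Levels of different genes are compared within a library as TPM (transcript abundance relative to the library's total), in which counts are divided by gene length. For comparisons of 1 gene between libraries, CPM (counts relative to the library total) scaled by the TMM method (scaled CPM) are used. That distinction matters because mitochondrial and immunoglobulin genes took 47.5 to 59.0% of the TPM total, least in library 3 and most in library 2. The germinal centre markers Fas, S1pr2, Mef2b, Gcsam, Mybl1, Rgs13 and Neil1 exceeded 1 TPM in every library, 7 of 7, beside 91.3% of all tested genes. The lists of naive B and plasma cell markers did so as well, each 7 of 7, so this count does not set germinal centre cells apart.

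Bcl6 and Ncor1 were the most abundant of the 7, Tbl1xr1 the least. Bcl6 (chromosome 16, 23965052 to 23988852) stood at 100.25, 48.5, 84.1 and 54.5 TPM in libraries 1 to 4, with a mean of 71.8 ± 24.5 (SD, n = 4). Ncor1 (chromosome 11, 62316426 to 62458541), the scaffold that binds HDAC3, stood at 66.1, 65.0, 82.8 and 69.0 TPM, with a mean of 70.7 ± 8.22. Bcl6 exceeded Ncor1 in libraries 1 and 3 and fell short of it in libraries 2 and 4. Hdac3 (chromosome 18), the deacetylase itself, was at 45.7, 42.3, 67.3 and 52.3 TPM, below Bcl6 and Ncor1 and above the other genes in all 4 libraries.

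The lower 4 places were closer together. Bach2 (chromosome 4, 32238804 to 32586108) stood at 42.9, 27.1, 49.3 and 39.2 TPM. Mta3 (chromosome 17, 83706163 to 83821516), a NuRD subunit, was at 38.0, 32.0, 44.8 and 38.7 TPM. In libraries 1, 3 and 4 Bach2 was above Mta3, and in library 2 it was below both Mta3 and Bcor. Bcor (chromosome X, 12036740 to 12160355), the BTB-binding corepressor, was at 30.7, 28.6, 39.6 and 33.3 TPM. Tbl1xr1 (chromosome 3, 22076652 to 22216594), the exchange factor, was at 21.6, 17.97, 34.9 and 29.6 TPM, the last of the 7 in all 4 libraries. In the order of mean TPM, then, came Bcl6, Ncor1, Hdac3, Bach2, Mta3, Bcor and Tbl1xr1. All 7 lay in the upper part of the range: between 67.3% (Tbl1xr1) and 88.5% (Bcl6) of the genes tested for variation had a lower mean TPM, and the median of the 7 was 39.6 TPM against 13.4 TPM for all tested genes.

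**Figure D1:**
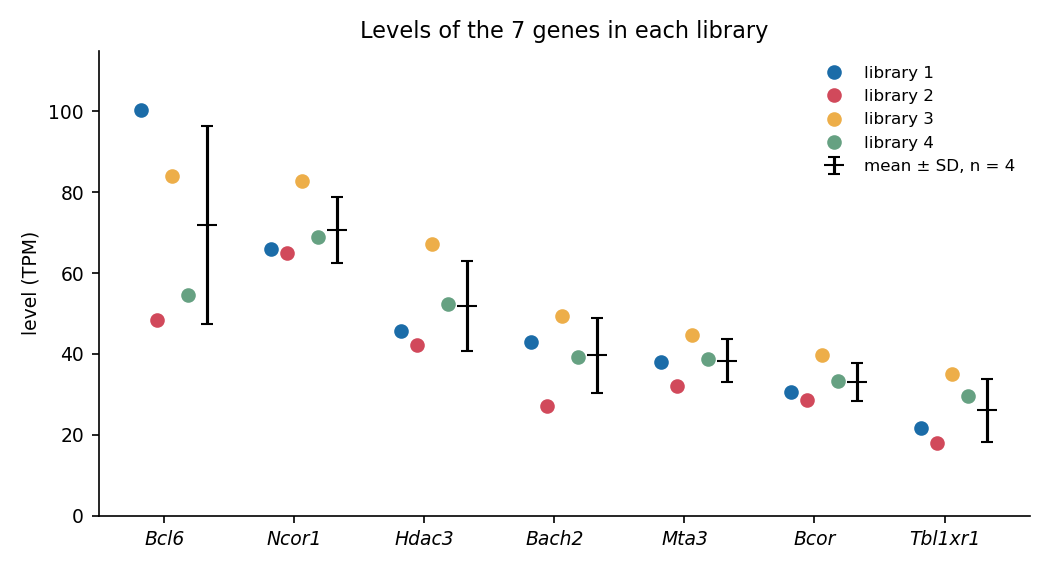
Level of each gene (TPM, vertical axis) in libraries 1 to 4 (coloured points), with the mean and SD of the 4 libraries (black). Bcl6 spans 48.5 to 100.25 TPM, and Tbl1xr1 is the lowest gene in every library.

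Of the 6 neighbouring pairs in this order, 2 did not differ beyond the spread between libraries. The order was itself taken from the means of these 4 libraries, so the signs and p-values of the pairs are no independent test of it. The difference of Bcl6 from Ncor1 was -0.03 ± 0.46 on the log2(TPM + 1) scale, positive in 2 of 4 libraries (two-sided exact sign-flip permutation p = 1). For Bach2 against Mta3 it was 0.02 ± 0.18, positive in 3 of 4 (exact permutation p = 0.875). In the other 4 pairs the upper gene was higher in 4 of 4 libraries: Ncor1 over Hdac3 by 0.45 ± 0.14, Hdac3 over Bach2 by 0.39 ± 0.22, Mta3 over Bcor by 0.21 ± 0.06 and Bcor over Tbl1xr1 by 0.37 ± 0.24. Each of these 4 gave an exact permutation p = 0.13, the smallest that 4 libraries allow, so none can pass 0.05. The places depend on gene length. With the longest transcript in place of the union of exons, Mta3 moved up to the place behind Ncor1 (53.7 TPM), and by CPM alone Hdac3 and Mta3 came last.

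The libraries differed most in Bcl6 among the 7 genes. Its scaled CPM were 307, 164, 222 and 159 in libraries 1 to 4, a 1.93-fold range and a coefficient of variation of 32.4%, against a median of 15.5% over all 11982 tested genes. Library 1 was highest, library 3 between, and libraries 2 and 4 close together. Bach2 followed a partly like course, at 195, 136, 193 and 169 scaled CPM (15.97%), with library 2 lowest. Tbl1xr1 varied by 20.0% in another pattern, at 87.8, 80.7, 123 and 114, with libraries 3 and 4 above libraries 1 and 2. Hdac3 was at 84.7, 86.5, 107.5 and 92.1 (11.2%), highest in library 3.

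Mta3, Bcor and Ncor1 varied little between libraries. Mta3 lay between 85.8 and 93.9 scaled CPM, with a coefficient of variation of 3.97%. Bcor lay between 122 and 135 (4.67%), highest in library 3, and Ncor1 between 384 and 420 (4.82%). The highest library exceeded the lowest by 1.09-fold for Mta3, 1.11-fold for Bcor and 1.09-fold for Ncor1, against a median of 1.42-fold over all tested genes. In TPM the same 3 genes had larger coefficients of variation, 13.7%, 14.5% and 11.6%, with library 2 lowest and library 3 highest for each.

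**Figure D2:**
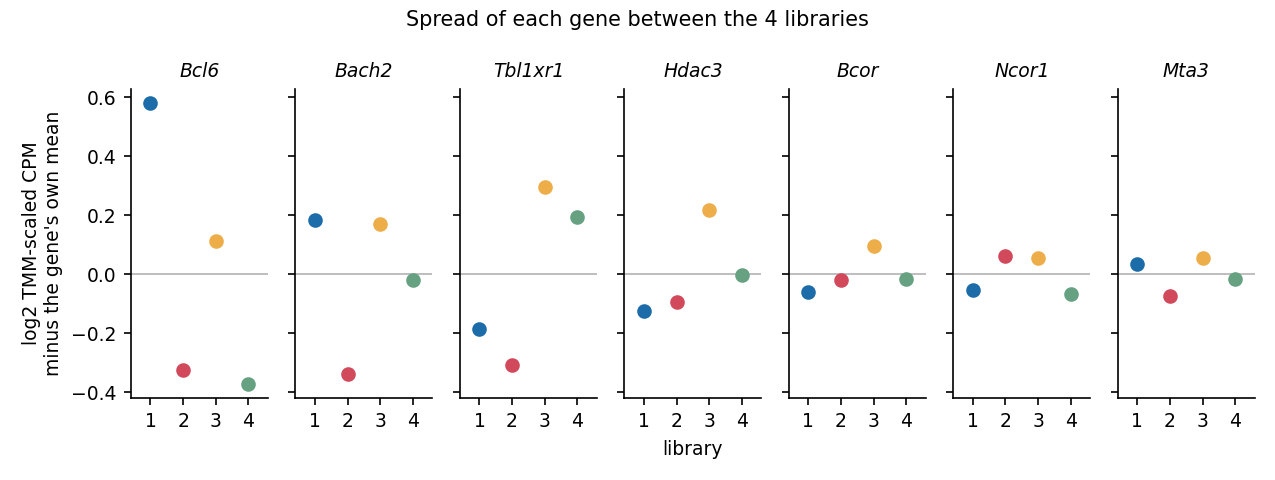
Scaled level of each gene in libraries 1 to 4 (horizontal axis) as log2 TMM-scaled CPM minus the gene's own mean (vertical axis). Bcl6 runs from -0.37 to 0.58, whereas Mta3, Bcor and Ncor1 stay within 0.1 of their means.

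The test of variation set each gene's quasi-dispersion against the trend for its expression level. The quasi-dispersion is a multiplier on the variance of a negative binomial model, which already holds counting noise and a dispersion common to all genes. None of the 7 genes passed at an adjusted p of 0.05, where 0.00835% of all tested genes did (1 of 11982). Bcl6 stood at 7.31 times the trend (edgeR quasi-likelihood, unadjusted p = 0.0288, adjusted p = 0.864), higher than 96.7% of tested genes. It was the 1 gene of the 7 under an unadjusted 0.05, a threshold that 4.97% of all tested genes passed. Tbl1xr1 was at 2.92 and Bach2 at 2.06 times the trend, Hdac3 at 0.846. Bcor (0.158), Ncor1 (0.156) and Mta3 (0.112) were below the trend, and 4.64 to 7.43% of tested genes were lower still. In simulated data 58% of genes changed 4-fold in 1 library were recovered, so a range like that of Bcl6 can be missed. Without library 1 Bcl6 fell to 3.22 times the trend and without library 4 to 4.98. It rose to 10.3 without library 2 and to 10.8 without library 3. With 1 library left out, Bach2 ran from 0.549 (without library 2) to 2.80 (without library 1). Tbl1xr1 ran from 2.37 (without library 3) to 4.26 (without library 1). Hdac3 ran from 0.132 (without library 3) to 1.15 (without library 2), and Bcor from 0.0214 to 0.222 by the same omissions. For Mta3 the range was 0.0365 (without library 2) to 0.118 (without library 4). For Ncor1 it was 0.0963 (without library 4) to 0.228 (without library 1).

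**Figure D3:**
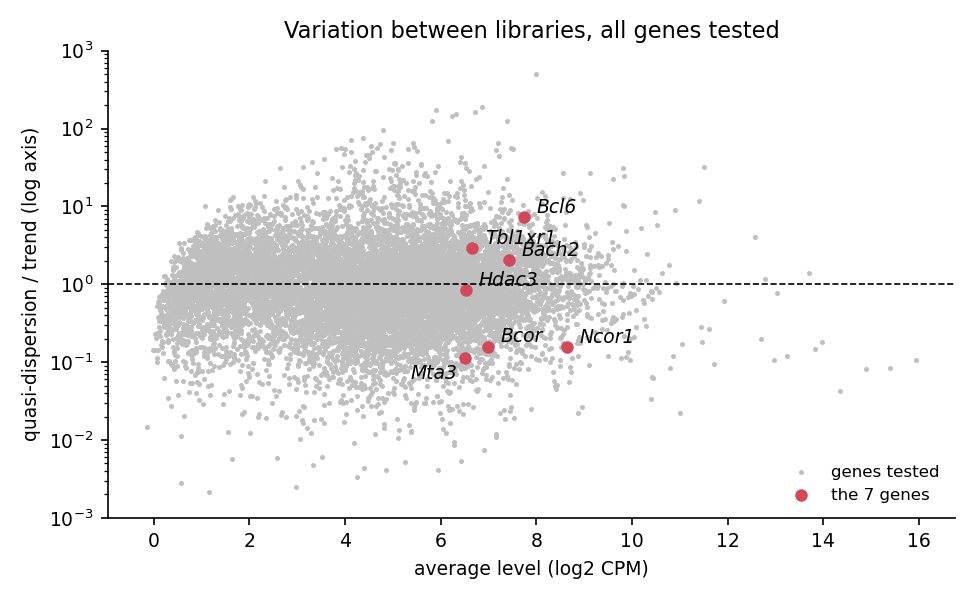
Quasi-dispersion over its trend (vertical, log axis) against average level (log2 CPM, horizontal axis) for 11982 tested genes (grey) and the 7 genes (red). Bcl6 is at 7.31, and Mta3, Bcor and Ncor1 lie between 0.112 and 0.158.

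Most of the 7 genes have close relatives, and the relatives' levels differed from theirs to very different degrees. Bcl6b, the nearest paralog of Bcl6, had 3, 9, 0 and 7 counts in libraries 1 to 4, against 2125 to 4325 for Bcl6. Bach1, which shares the partners of BACH2, had 2.56, 3.66, 4.86 and 6.21 TPM. Bach2 lay above it by 2.95 ± 0.53 on the log2(TPM + 1) scale, or 7.72-fold. Bcorl1, the paralog of Bcor, had 1.57, 1.67, 0.896 and 0.723 TPM, and Bcor lay 3.96 ± 0.48 above it. For these 3 genes the member was thus the higher form in 4 of 4 libraries.

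Hdac3 was compared with the class I deacetylase genes Hdac2 and Hdac1. It exceeded Hdac2, a deacetylase of the NuRD and SIN3 complexes, by 0.98 ± 0.13 (25.6 ± 3.85 TPM for Hdac2). Against Hdac1 (34.2, 32.1, 64.4 and 45.4 TPM) the difference was 0.27 ± 0.16, and it turned to -0.30 with the longest transcript as the length. The Hdac1 level is uncertain, since 35.5% of the distinct 50-base stretches of its transcripts occur in transcripts of other genes.

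Tbl1xr1 and Mta3 were the members that stood below their relatives. Tbl1x, the X-linked paralog of Tbl1xr1, had 34.2, 24.2, 43.6 and 35.6 TPM, and the difference of Tbl1xr1 from it was -0.40 ± 0.17, negative in 4 of 4 libraries. It was -0.71 with the longest transcript as the length and -0.082 without gene length (exact sign-flip permutation p = 0.5). Mta3 was the least abundant of the 3 MTA genes. Mta1 had 90.5, 88.4, 140.5 and 113 TPM, with a difference for Mta3 of -1.45 ± 0.17, and Mta2 had 181, 143, 235 and 172 TPM, with a difference of -2.21 ± 0.11, or 4.62-fold. Without gene length the difference from Mta1 was -0.70, and with the longest transcript -0.91. No library of Mta3 reached the lowest library of Mta1 or Mta2. By TPM over the union of exons, all 8 comparisons with a relative had the same sign in 4 of 4 libraries and an exact sign-flip permutation p = 0.13, the smallest possible here.

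**Figure D4:**
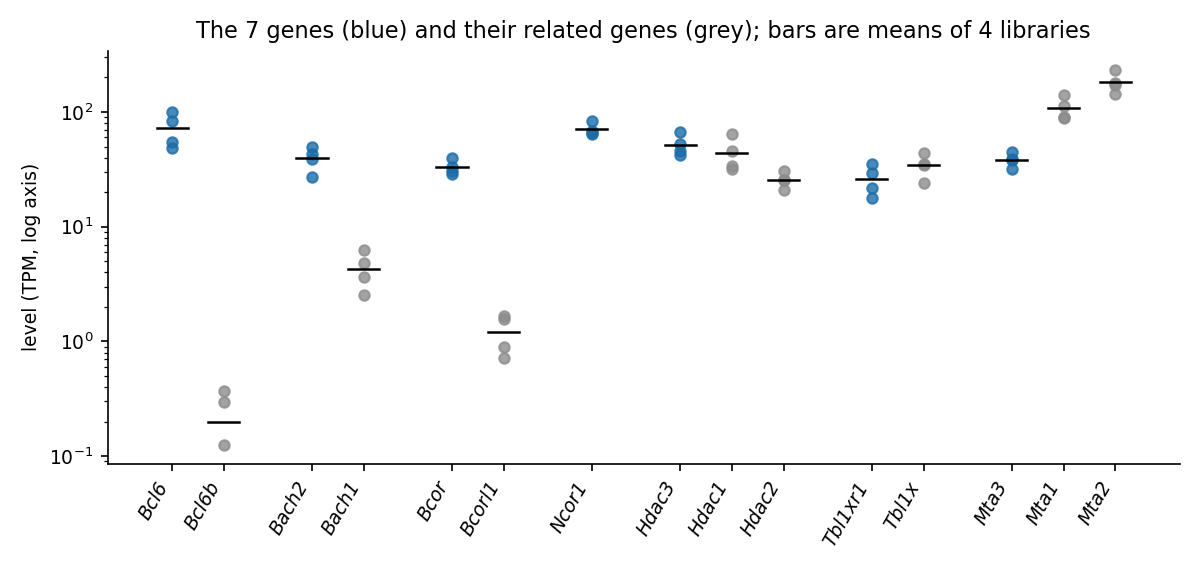
Levels (TPM, log axis) of the 7 genes (blue) and their related genes (grey) in 4 libraries (points), with means (bars). Bcl6b in library 3 had 0 counts and has no point, and Mta1 and Mta2 lie above every Mta3 value.

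Lists of the genes of the corepressor complexes are set beside all tested genes, of which 91.3% exceeded 1 TPM in every library. These lists include Ncor1, Hdac3, Tbl1xr1, Bcor and Mta3 themselves, so they are not independent of the results above. Of 5 NCOR-HDAC3 genes, 5 exceeded 1 TPM in every library, led by Gps2 (286 ± 62.9), a small subunit that binds TBL1 proteins, at 234, 253, 376 and 283 TPM. Of 11 genes of the Polycomb complex PRC1.1 that contains BCOR, 10 did so, led by the deubiquitinase gene Usp7 (113 ± 34.1), the adaptor gene Skp1a (54.5 ± 7.19) and Yaf2 (38.5 ± 9.41), and Bcorl1 was the exception. All 13 NuRD genes did so, led by Mta2, the remodeller ATPase gene Chd4 (170 ± 28.3) and the methyl-DNA binding gene Mbd2 (167 ± 45.8), down to Gatad2b (21.1 ± 3.21). The coefficient of variation of scaled CPM had a median of 13.4% in the NCOR list, 16.6% in the PRC1.1 list and 8.62% in the NuRD list, against 15.5% for all tested genes. These lists lay at higher levels, with medians of 51.9, 22.2 and 69.5 TPM against 13.4 for all tested genes. Relative to the trend for level, the median quasi-dispersion was 1.34 in the NCOR list and 1.30 in the PRC1.1 list. Both were above the 0.895 of all tested genes, and the NuRD list was below it at 0.557. None of the 5, 11 and 13 genes reached an unadjusted p of 0.05, beside 4.97% of all tested genes. Among 7 other cofactors, Ctbp1 (118 ± 19.4), the Polycomb methyltransferase gene Ezh2 (55.1 ± 15.2) and Sin3a (50.2 ± 9.35) led, while Ctbp2 was at 0.242 ± 0.058, from 7 to 12 counts in a library. Ctbp2 is known as a widely expressed gene, and its low count here is uncertain.

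Small MAF and CNC genes, partners and relatives of Bach2, were led by Mafk (44.0 ± 14.1), then Nfe2l1 (30.5 ± 3.41) and Nfe2l2 (26.4 ± 4.17), both activators that share MAF partners with BACH2. Mafk was at 44.6, 82.0, 86.9 and 89.4 scaled CPM, lowest in library 1, where Bach2 was as high as in library 3 (edgeR unadjusted p = 0.0354, adjusted p = 0.913). Maff and Bach1 were also lowest in library 1, at 15.0 against 23.1 to 32.6 and at 7.24 against 11.4 to 16.7 scaled CPM. Of the 6 genes in this list 4 were lowest in library 1, as were 28.4% of all tested genes. None of the 6 passed the adjusted threshold.

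Of 11 genes that regulate Bcl6 and Bach2, 1 (Irf4) was under an unadjusted 0.05, and the median quasi-dispersion of the 11 was 0.991 times the trend, against 0.895 for all tested genes. Mef2b, an activator of Bcl6, was at 512 ± 73.6 TPM, Pax5, the B cell identity factor, at 318 ± 33.4, and Irf8 at 216 ± 19.0, down to Foxo3 at 10.3 ± 1.11. In scaled CPM Mef2b was at 308, 315, 340 and 310, a narrower range than the 1.93-fold one of Bcl6. Irf4, which represses Bcl6 at high levels and is itself repressed by BCL6, was at 203, 405, 315 and 333, lowest where Bcl6 was highest (edgeR unadjusted p = 0.0474, adjusted p = 0.990).

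Genes known to be repressed by BCL6 exceeded 1 TPM in every library in 17 of 17 cases, beside 91.3% of all tested genes, with a median of 35.2 TPM. The highest were Myc (243 ± 58.4), Irf4 (143 ± 35.3) and the p53 gene Trp53 (107 ± 12.4), and the lowest was the checkpoint kinase gene Atr (3.44 ± 0.49). The cell cycle inhibitor gene Cdkn1a was at 3.74 ± 1.41 and Prdm1 at 10.3 ± 2.52. Of the 17 genes 11 had their lowest scaled CPM in library 1, the library with the highest Bcl6, beside 28.4% of all tested genes, and 11 had their highest in library 2, beside 25.1%. Library 4, with the lowest scaled Bcl6, was the highest for 4. Without library 3, a check added after the data were seen, the counts were 13 of 17 (34.4% of all tested genes) and 11 of 17 (32.7%).

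Individual genes show the size of this. Cd69, an activation marker that restrains exit from tissue, was at 177, 368, 201 and 237 scaled CPM. Gpr183, the EBI2 receptor that draws cells out of the follicle centre, was at 49.95, 107, 60.1 and 83.8. For Myc the values were 219, 436, 247 and 293. In all 3 genes library 1 was lowest, library 3 next, then library 4, and library 2 highest, whereas Bcl6 was slightly lower in library 4 than in library 2. Cd69, Gpr183, Myc and Irf4 were the 4 of 17 genes under an unadjusted 0.05 (4.97% of all tested genes), and none passed after adjustment (adjusted p between 0.821 and 0.990). Many of the 17 departed from this order. Prdm1, Bcl2, Ccnd2 and Cd80 were lowest in library 3, and Cdkn1a, Atr, Cd44 and Id2 were highest in library 4. Trp53 (197, 192, 197 and 180) and the kinase gene Chek1 (38.8, 32.2, 53.2 and 37.7) were neither lowest in library 1 nor highest in library 2.

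**Figure D5:**
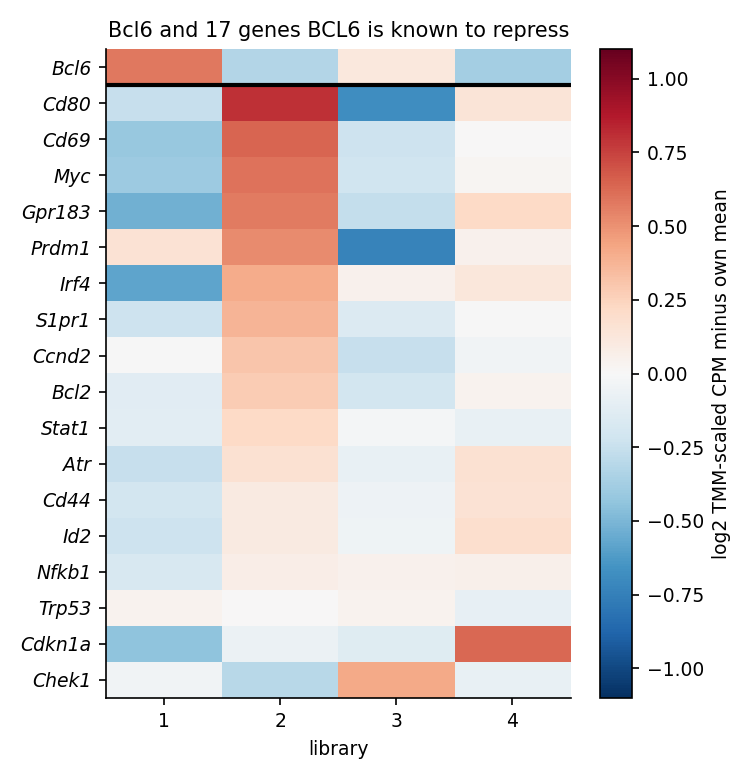
Bcl6 (top row) and 17 genes known to be repressed by BCL6, each as log2 TMM-scaled CPM minus its own mean (colour scale, red above and blue below), in libraries 1 to 4 (columns). Library 2 is the highest for 11 of the 17 genes and library 1 the lowest for 11.

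Genes repressed by BACH2 ranged widely in level. Fth1 (590 ± 79.6), the ferritin heavy chain gene, and Hmox1 (70.8 ± 14.5), the haem oxygenase gene, led the 6 genes, followed by Ftl1 (46.7 ± 5.79), of which 58.4% of distinct 50-base stretches are shared with other genes. Nqo1, a quinone reductase gene, was the lowest at 0, 0.394, 0.437 and 1.12 TPM. Prdm1, a target of both repressors, was at 28.0, 36.0, 15.0 and 25.9 scaled CPM, highest in library 2 and lowest in library 3 (edgeR adjusted p = 0.990). Of the 5 genes tested, 2 were highest and 2 lowest in library 2, where Bach2 was lowest, beside 25.1% and 26.7% of all tested genes. In library 3, 3 of the 5 were lowest, beside 26.5%. The difference from the BCL6 list was not tested.

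Markers of other cell states also moved between libraries. In bulk RNA fewer cells of a type and less RNA per cell cannot be told apart. In scaled CPM the 7 germinal centre genes summed to 1411, 1098, 1427 and 1160.4 in libraries 1 to 4, and the 7 naive B genes to 1678.5, 3172, 1916 and 2161. Of those 7 naive genes 6 were highest in library 2, beside 25.1% of all tested genes, Gpr183 among them, which is also in the list of genes repressed by BCL6. An unadjusted edgeR p under 0.05 was found for 9 of 10 tested T cell genes, 4 of 6 plasma cell, 3 of 7 naive B, 2 of 7 germinal centre and 1 of 6 macrophage genes, beside 4.97% of all tested genes. None of them passed the adjusted threshold. The 2 germinal centre genes were Gcsam, at 144, 43.0, 77.1 and 74.4 scaled CPM, and Mybl1, at 149.8, 52.9, 78.4 and 75.9, both highest in library 1 and lowest in library 2. The 6 tested plasma cell genes, which include Prdm1 and Irf4, summed to 1237 in library 3 and 2346 to 2688 in the others. Jchain was the largest part of each sum, at 1810, 1737, 626 and 1564 scaled CPM in libraries 1 to 4. Of the 6 genes 5 were lowest in library 3, beside 26.5% of all tested genes. Irf4 was lowest in library 1, at 203 against 315 in library 3. The part of these states in the levels of Bcl6 and the genes it represses was not tested.

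T cells were considered because follicular helper T cells also express Bcl6. The 10 tested T cell genes summed to 313, 156, 106 and 257.5 scaled CPM. Of the 11 listed, 10 exceeded 1 TPM in every library, beside 91.3% of all tested genes. The exception was Il21, a defining helper cytokine gene, at 0.098 ± 0.051 TPM. The highest of the list was Trac, at 135 ± 61.9 TPM. Of the other helper markers listed, Cd4 was at 15.6 ± 8.05 TPM. Icos was at 3.53, 2.23, 3.66 and 9.85 TPM in libraries 1 to 4. Pdcd1 was at 4.02, 1.43, 1.41 and 1.39 TPM. Library 1 had both the highest T cell sum and the highest Bcl6 by scaled CPM. Library 3 had the lowest T cell sum and the second highest Bcl6, and library 4 the second highest T cell sum and the lowest Bcl6. The 6 macrophage genes summed to 87.5 to 143 scaled CPM, highest in library 1. The part of T cell and macrophage RNA in the level of Bcl6 was not tested.

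By profile over the 4 libraries, the genes most like Bcl6 were Paqr4 (5.11, 2.78, 3.61 and 2.60 scaled CPM), Psenen and Cntn2, all of low abundance. Their root mean square distance from Bcl6 in centred log2 CPM was 0.028, 0.058 and 0.064, and 14 of 11981 genes lay within 0.1. The genes most like Bach2 were Hpf1 (79.7, 55.7, 79.2 and 70.5 scaled CPM), Carhsp1 and Rpl15, at distances of 0.011, 0.013 and 0.018, with 413 genes within 0.1. None of the other 6 genes was among the nearest 3 of either. With 4 libraries such likeness is a description and carries no test.

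Reads shared with other genes touch the 7 little. Bcl6, Bcor and Hdac3 had no 50-base stretch in common with transcripts of another gene, and Mta3 and Tbl1xr1 had 0.127% and 0.198%. Ncor1 had 1.52% and Bach2 5.19%, mostly shared with its antisense gene Bach2os. Bach2os shares 537 exonic bases with Bach2 and had 25 to 53 counts, against 1759 to 2893 for Bach2. Use of strand in counting was not given in the sources used here, so reads of the pair could be exchanged. Ncor1 overlaps Pigl on the opposite strand over 82 exonic bases (128 to 157 counts) and Ttc19 over 1 base. Bcl6 overlaps Gm37419 over 21 (2 to 10 counts).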

How the data were processed

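Poly(A) RNA of 4 libraries was sequenced with single-end reads of 50 nt. The submitters' processing notes name STAR 2.5.2b, featureCounts 1.6.0, FastQC and the mm10 build. Strand use, handling of multi-mapping reads and the annotation release are not given in the sources used here. Each library's deposited table holds raw read counts by gene, as whole numbers. Libraries are numbered 1 to 4 in the order listed.

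Gene lengths (union of exons) and positions came from GENCODE M21 (GRCm38, the assembly of mm10). Of 37646 identifiers 37536 matched it, and 110 did not and entered no TPM. TPM and CPM were computed from the counts. Variation was tested over all genes by edgeR (version 4.0.16, R 4.3.3) with an intercept-only glmQLFit (legacy = FALSE) after TMM scaling and filterByExpr, taking the quasi-dispersion over its trend against the upper tail of the F distribution, with Benjamini-Hochberg adjustment. DESeq2 1.42.0 was an alternative. In simulated counts (12346 and 12319 genes tested) 58% of 200 genes changed 4-fold in 1 library were recovered, and 99.5% at 16-fold. Differences between genes were taken as log2(TPM + 1) within a library. Exact sign-flip p-values measure the spread between libraries and were not adjusted over the 6 neighbouring and 8 related pairs. The 7 genes, their related genes, the 8 pathway and 5 marker lists and the tests were chosen with earlier results of these data known. Named genes are the 7, their relatives, overlapping genes, the 3 highest and the lowest of each pathway list, list genes that passed the adjusted test (none did), and the 3 genes nearest in profile to Bcl6 and to Bach2. A few list genes and 1 related pair are not reported here. Other list genes are examples picked after their values were seen. Promoter windows came from RefSeq (GRCm38.p6). Shared 50-base stretches were exact matches among GENCODE M21 transcripts. Python 3.11.15 did the rest.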

Additional observations from a re-analysis of the deposited data

How the results depend on the processing

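Each of the 7 genes stayed above an adjusted p of 0.05 under all 8 edgeR alternatives, and DESeq2 marked none of them as a dispersion outlier. The count of genes called, 1 of 11982, rose to 262 without a filter on low counts, 63 with the robust edgeR fit and 159 as DESeq2 dispersion outliers, and ran from 0 to 19 with 1 library left out. Without library 2 it was 0 (557 genes at an unadjusted 0.05), without library 3 19 and without library 4 3. With the longest transcript as the length, Bcl6 minus Ncor1 turned to 0.23, Bach2 minus Mta3 to -0.50 and Hdac3 minus Hdac1 to -0.30, and means moved to 106 TPM for Bcl6, 86.7 for Ncor1 and 53.7 for Mta3. Without gene length, Hdac3 minus Bach2 turned to -0.89 and Mta3 minus Bcor to -0.48. With 1 library left out, Bcl6 minus Ncor1 ran from -0.24 to 0.094 (positive without library 2 or 4) and Bach2 minus Mta3 from -0.026 to 0.11 (negative without library 1 or 3). Leaving mitochondrial and immunoglobulin genes out of the total raised the means to 155 TPM for Bcl6, 153 for Ncor1, 111 for Hdac3, 85.0 for Bach2, 82.8 for Mta3, 71.2 for Bcor and 55.4 for Tbl1xr1, since fewer genes share the total. The cause of the other changes was not tested. Pseudocount 0.1 reversed no difference. No paired analysis was possible because there is 1 group. With 4 libraries, exact tests cannot reach 0.05.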
